A study of Mus musculus with 6 samples.

Results

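The genes described here are 7 genes of zinc handling in mouse crypt epithelium, namely the metallothionein genes Mt1 and Mt2, the metal-sensing transcription factor gene Mtf1, the zinc importer genes Slc39a4 and Slc39a5 and the zinc exporter genes Slc30a1 and Slc30a2. They were chosen by name, and all 7 were found among the 24930 genes of the deposited table. Messenger RNA was measured in 6 libraries of primary crypt epithelium, 3 from β-catenin GOF/+ mice, called mutant below, and 3 from controls. In the mutant crypts a single β-catenin allele had been mutated 4 days before, and the name of the mutant columns marks a heterozygous change of exon 3. This exon encodes the sites through which β-catenin is marked for destruction, so its loss leaves a stable protein. The plus sign in the label stands for a wild-type second allele. The alleles of the controls, the driver and agent of induction, strain, age and sex were not stated in the labels. Whether replicates are separate animals is not stated either, and the p-values therefore reflect only how these libraries vary, some of which may be technical.

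Metallothioneins are small cysteine-rich proteins that bind zinc and copper in the cytosol. When free zinc rises, MTF1 binds metal response elements, short DNA motifs upstream of the metallothionein genes and of Slc30a1, and transcription rises. Transporters of the SLC39 (ZIP) family bring zinc into the cytosol, and those of the SLC30 (ZnT) family move it out of the cell or into vesicles. In the small intestine ZIP4, encoded by Slc39a4, takes up dietary zinc at the brush border, ZIP5 lies on the basolateral side, ZnT1 exports zinc across the basolateral membrane, and ZnT2, encoded by Slc30a2, loads zinc into the secretory granules of Paneth cells. Metallothionein genes also respond to glucocorticoids, to inflammation through STAT3 and to oxidative stress.

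The promoters of Mt1, Mt2 and Slc30a1, the 3 classical MTF1 target genes among the members, are shown so that the metal response element motif can be seen in each. RefSeq start sites on GRCm38.p6 were matched by symbol for 6 of the 7 genes, all but Slc39a4, and each sequence runs 5′ to 3′ from 250 bases before to 50 bases after the start. The submitters' processing notes name another build, mm9, so these coordinates should not be read as positions in that build. Capitals mark each match to TGCACNC or TGCGCNC, the core of the metal response element, on either strand. The 3 windows are chr8:94178839-94179138, chr8:94172368-94172667 and chr1:191906531-191906830, all on the plus strand.
Mt1: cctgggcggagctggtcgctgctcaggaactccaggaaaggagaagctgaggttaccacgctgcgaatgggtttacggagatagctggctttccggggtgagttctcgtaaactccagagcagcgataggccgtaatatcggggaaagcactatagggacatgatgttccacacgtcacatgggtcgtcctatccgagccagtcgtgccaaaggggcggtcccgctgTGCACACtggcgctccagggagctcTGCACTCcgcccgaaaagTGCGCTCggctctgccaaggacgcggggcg
Mt2: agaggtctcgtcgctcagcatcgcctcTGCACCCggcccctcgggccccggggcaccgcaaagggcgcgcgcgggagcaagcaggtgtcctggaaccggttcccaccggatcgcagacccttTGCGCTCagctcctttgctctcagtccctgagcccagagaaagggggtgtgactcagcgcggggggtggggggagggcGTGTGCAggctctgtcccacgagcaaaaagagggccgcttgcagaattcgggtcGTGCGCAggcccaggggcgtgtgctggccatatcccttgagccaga
Slc30a1: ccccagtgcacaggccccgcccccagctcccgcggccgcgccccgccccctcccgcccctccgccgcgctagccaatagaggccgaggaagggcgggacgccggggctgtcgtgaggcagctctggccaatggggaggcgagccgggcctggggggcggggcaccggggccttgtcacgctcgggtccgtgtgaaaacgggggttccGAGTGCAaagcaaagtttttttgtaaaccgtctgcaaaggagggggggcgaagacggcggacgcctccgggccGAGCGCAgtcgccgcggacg

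The Mt1 window held 3 matches, the Mt2 window 4 and the Slc30a1 window 2. Counted from the start site, they began at -23, 3 and 21 in Mt1 and at -223, -128, -50 and 5 in Mt2. In Slc30a1 they began at -43 and 31. Positions above 0 lie after the RefSeq start used for that window, and a gene can have other starts. Bases outside the windows were not searched, so the counts and absences hold for these windows alone. Among 32851 RefSeq promoter windows of the same length, 25.7% held at least 1 match, 7.11% at least 2, 1.97% at least 3 and 0.517% at least 4. Slc30a2 also had 2 matches, Slc39a5 had 1 in the first of its 2 windows, and Mtf1 had 0. The antioxidant response element TGACNNNGC, found in 12.4% of all windows, matched once in Mt2 (TGACTCAGC) and once in Slc30a1, and it matched 2 times in the second Slc39a5 window. The TCF motifs CTTTGAA and CTTTGAT, the letters through which β-catenin's DNA-binding partners act, were in 8.65% of all windows and in 0 of the windows of these 6 genes. The search covered both strands, and 0 pairs of matches overlapped each other. A match describes letters in the window and does not show binding.

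Levels are given in units, a normalized abundance per gene made by the authors. The median ratio of each library to the geometric mean of the libraries lay between 0.99 and 1.01. The scaling used by the authors was not given, and values already scaled by this ratio would give such a result by construction. The ratio is therefore no independent check of a common scale. Total units were unequal, with 1268771 for control replicate 1 as the largest sum and 645225 for mutant replicate 1 as the smallest. Absolute depth is unknown, and steps among the lowest values gave relative reads per unit, lowest at 0.886 (mutant replicate 3) and highest at 1.42 (control replicate 3), where control replicate 1 is 1. Among genes seen in a single library, values fell with transcript length in each library (Pearson r from -0.85 to -0.70 across 44 to 113 genes, which are not independent replicates), so a unit is taken per length of transcript. The value of such a gene multiplied by its length in kb had a median between 0.0594 and 0.0945, and every member stood at 3.5 units or more in every library. Libraries differed in their cell type markers. The sum of 9 Paneth cell markers ran from 95450 to 355100 units among the controls and from 35925 to 159992 among the mutants. That of 11 enterocyte markers ran from 3273 to 9086 and from 5304 to 22596, highest in mutant replicate 3. Of 5 tested enteroendocrine markers 4 were higher and 1 was lower by log2 difference, and Chga, Chgb and Neurod1 had groups that did not overlap (log2 differences of 0.50, 0.64 and 0.55, limma adjusted p of 0.589 for each). All 6 tuft cell markers were lower by log2 difference, of which Alox5 had groups that did not overlap (-1.04, limma adjusted p of 0.589). Groups did not overlap for 16.7% of all tested genes. The part of these cell types in the levels of the members was not tested. By Xist and Y-linked transcripts, control replicates 1 and 2 and mutant replicate 1 were male and the other 3 libraries female.

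Each gene was then compared between mutant and control crypts, the question being which zinc genes differed in level. Mt1, Mt2 and Slc39a4 stood higher in all 3 mutant libraries than in any control library. None of the 7 members passed the test over all genes. The 2 metallothionein genes stood 1.67 and 2.06 times, and the brush border importer gene 2.81 times, above their control means. Of 11837 genes tested, those with a mean of at least 1 unit, limma called 0.0169% at a Benjamini-Hochberg adjusted p under 0.05, and 0 of the 7 members. At an unadjusted p under 0.05, 3 of the 7 were higher and 0 lower, where 4.72% and 3.59% of all tested genes were. The 3 mutant libraries all exceeded the 3 control libraries for 3 of the 7 members and for 8.34% of all tested genes, and all lay below them for 0 members and 8.37% of genes. The log2 difference was above 0 for 6 of the 7 and for 47.3% of all tested genes. The members were named with earlier results of these data known, so these counts describe the list and do not test it. The median log2 difference was 0.67 over the 7 members and -0.02 over all tested genes.

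**Figure D1:**
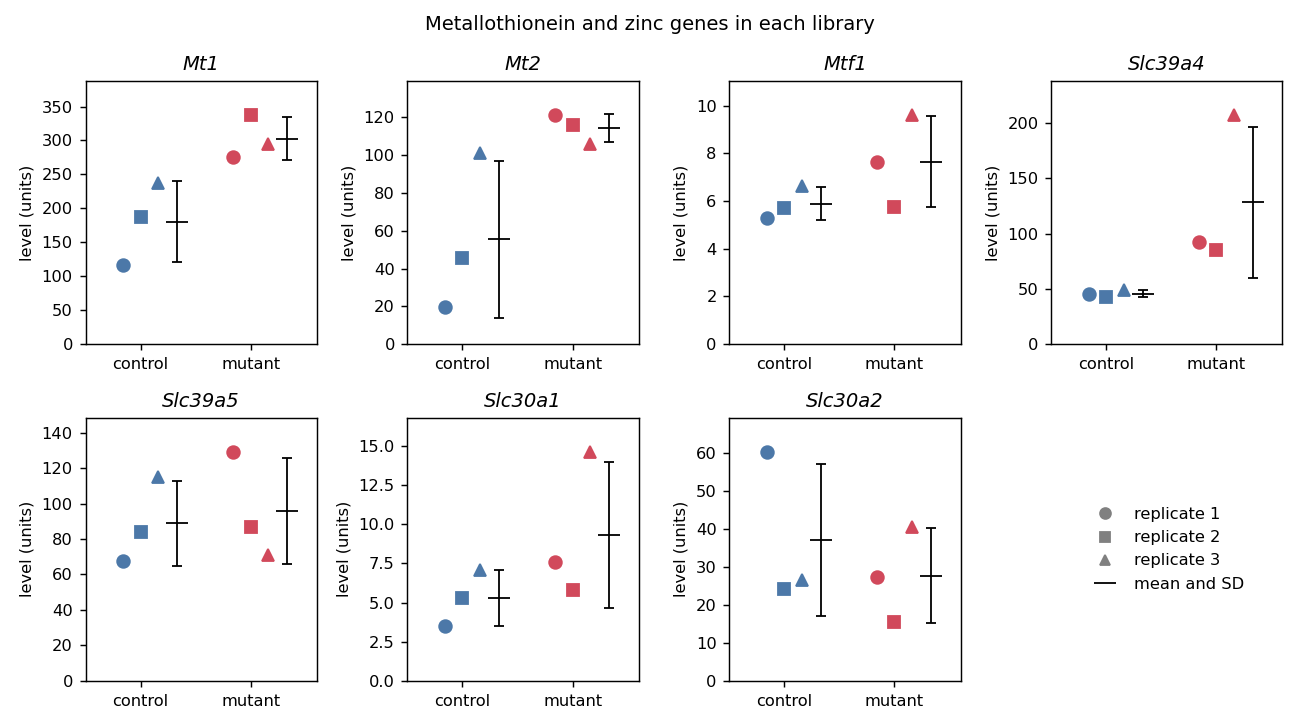
Level of each of the 7 genes (y axis, units, from 0) in the 3 control libraries (blue) and the 3 mutant libraries (red); symbols mark replicate numbers and black bars the mean and SD. Mt1, Mt2 and Slc39a4 show no overlap between the groups, and the mutant mean of Slc39a4 (128 units) rests in part on replicate 3 at 207 units.

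Mt1 was the most abundant of the members in every library. It stood at 117, 188 and 237 units in control replicates 1 to 3 and at 275, 337 and 295 units in mutant replicates 1 to 3. The control values spread widely and the mutant values lay close together. The means were 181 ± 60.5 and 302 ± 32 units (SD, n = 3 each), which is 0.79 ± 0.28 (SE) as a difference on the log2(value + 1) scale used throughout (limma adjusted p of 0.589).

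Mt2, its neighbour on chromosome 8, followed the same order of libraries within the control group. It had 19.6, 45.6 and 101 units in control replicates 1 to 3 and 121, 116 and 106 units in the mutant replicates. The highest control value lay just under the lowest mutant value, and control replicate 1 was lowest for both genes. The means were 55.4 ± 41.5 and 114 ± 7.45 units (SD, n = 3 each), and the log2 difference was 1.32 ± 0.52 (SE; limma adjusted p of 0.589). Without control replicate 1, which also had the highest Paneth marker sum, the differences were 0.51 for Mt1 and 0.74 for Mt2 (limma adjusted p of 0.797 for both). The part of cell composition in the metallothionein levels was not tested.

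Taken as a sum, Mt1 and Mt2 had 136, 234 and 338 units in the control libraries and 395, 453 and 401 units in the mutant libraries. Mt1 exceeded Mt2 in every library, by a ratio of 5.94, 4.13 and 2.35 in controls and 2.28, 2.92 and 2.79 in mutants. Such a ratio of 2 genes within a library does not depend on the scale of that library. The ratio was thus highest where metallothionein was lowest, and it overlapped between the groups through control replicate 3. In that library, the 1 female control, both genes were close to mutant levels. Among female libraries Mt1 had 237 units in the control and 337 and 295 in the mutants. Mt2 had 101 units in that control and 116 and 106 in those mutants. Among male libraries Mt1 had 117 and 188 units in the controls and 275 in the mutant. Mt2 had 19.6 and 45.6 units in those controls and 121 in that mutant. With sex as a covariate the log2 differences were 0.65 for Mt1 and 1.05 for Mt2 (limma adjusted p of 0.921 for both). The other 2 metallothionein genes differ in tissue use, with Mt3 known from brain and Mt4 from squamous epithelium. Mt3 was low at 3.13 ± 2.85 units among the controls and 2.21 ± 1.38 units among the mutants, and its groups overlapped (log2 difference of -0.26 ± 0.52, limma adjusted p of 0.857). Mt4 reached at most 1.19 units and was not tested.

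Mtf1, which encodes the zinc sensor that switches on Mt1, Mt2 and Slc30a1, had 5.29, 5.7 and 6.64 units among the controls and 7.62, 5.75 and 9.59 units among the mutants. The groups overlapped in mutant replicate 2. The log2 difference was 0.31 ± 0.20 (SE; limma adjusted p of 0.601), and 0.15 without mutant replicate 3. Its level says nothing of the activity of the protein, which is set by zinc binding.

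Slc39a4 had the smallest p of the 7 genes and ranked 82 of 11837 by p. Control replicates 1 to 3 had 45.5, 42.4 and 48.9 units, and mutant replicates 1 to 3 had 92.7, 85.3 and 207 units. The control libraries lay within a narrow band, mutant replicates 1 and 2 lay close together above it, and mutant replicate 3 stood far above both. The means were 45.6 ± 3.26 and 128 ± 68 units (SD, n = 3 each), and the log2 difference was 1.35 ± 0.33 (SE; limma adjusted p of 0.589). Among male libraries the controls had 45.5 and 42.4 units and the mutant 92.7, and among female libraries the control had 48.9 units and the mutants 85.3 and 207. Without mutant replicate 3 the difference was 0.95 (limma adjusted p of 0.264), and with sex as a covariate 1.24 (0.921).

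Slc39a4 is a gene of absorptive enterocytes, so its level was set beside the 11 enterocyte markers, which include Fabp2, Alpi and Krt20. Of these markers 10 were higher and 1 was lower by log2 difference, 0 passed the test in limma (1 at an unadjusted p under 0.05), and 0 had groups that did not overlap. Mutant replicate 2 had a marker sum of 5304 units and control replicate 3 one of 9086 units, while Slc39a4 was 85.3 and 48.9 units in the same libraries. Within the mutant group, the marker sum and Slc39a4 were both highest in replicate 3. Divided by the marker sum, Slc39a4 came to 1.39, 0.921 and 0.538% among the controls and 0.812, 1.61 and 0.915% among the mutants, and these shares overlapped. In bulk samples such as these, more cells of a type and more RNA per cell cannot be told apart.

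Slc39a5, the basolateral importer gene, differed from Slc39a4 in its order of libraries. It had 67.6, 83.9 and 115 units among the controls and 129, 86.9 and 71.2 units among the mutants. The groups overlapped throughout, and mutant replicate 3, highest for Slc39a4, was the lowest of the mutant libraries. The log2 difference was 0.09 ± 0.28 (SE; limma adjusted p of 0.908), and it turned to -0.08 without control replicate 1 and -0.14 without mutant replicate 1. Array weights give each library its own weight, here 6.47 for mutant replicate 1 and 0.576 and 0.228 for mutant replicates 2 and 3. With them the log2 difference of Slc39a5 was 0.58 (limma adjusted p of 0.185), so the mutant side rested mostly on replicate 1. The ratio of Slc39a4 to Slc39a5 within a library was 0.673, 0.505 and 0.425 among the controls and 0.721, 0.982 and 2.9 among the mutants. The ratio was thus below 1 in every library except mutant replicate 3, and its groups did not overlap. This pair was chosen after its values were seen, and the ratio was given no test.

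Slc30a1, which encodes the exporter ZnT1 and has 2 of the motif matches shown above, had 3.5, 5.27 and 7.05 units among the controls and 7.6, 5.78 and 14.6 units among the mutants. The groups overlapped through mutant replicate 2. The log2 difference was 0.67 ± 0.35 (SE; limma adjusted p of 0.589), and without mutant replicate 3 it was 0.32 (0.938). Unlike the metallothionein genes, Slc30a1 was thus highest in mutant replicate 3 by a wide margin. The sum of Mt1 and Mt2 divided by Slc30a1 was 38.9, 44.4 and 47.9 among the controls and 52, 78.4 and 27.4 among the mutants, so that the 3 MTF1 target genes did not keep a fixed proportion among the mutant libraries. The ratio of Slc39a4 to Slc30a1 was 13, 8.04 and 6.94 among the controls and 12.2, 14.8 and 14.1 among the mutants, and its groups overlapped through control replicate 1.

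**Figure D2:**
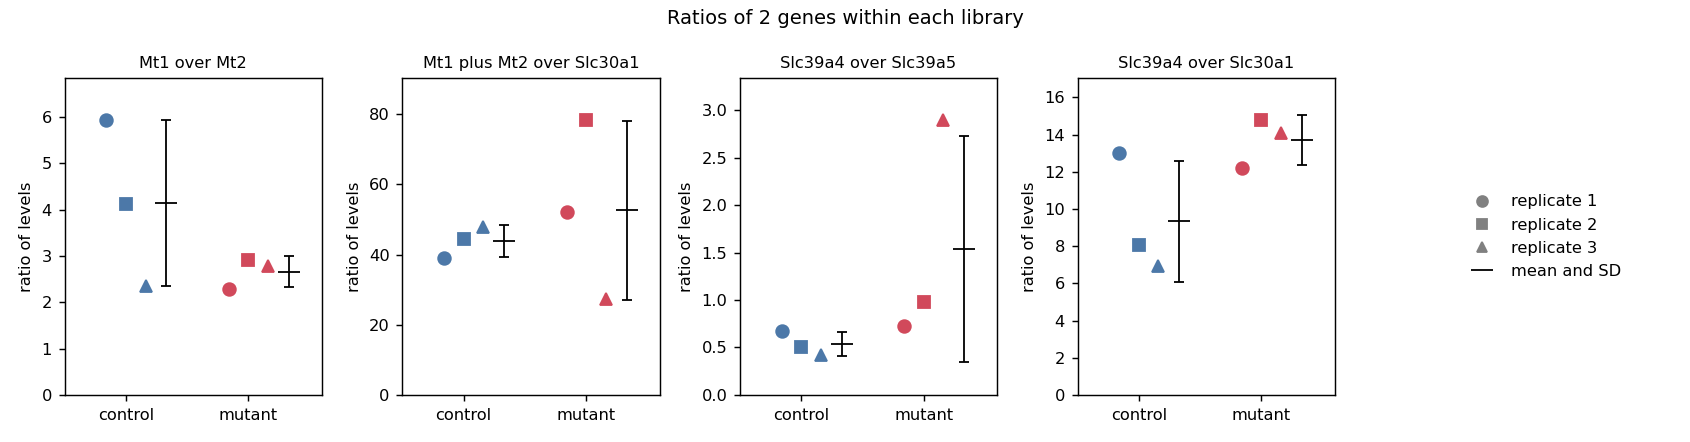
Ratios of levels within each library (y axis, no unit, from 0) for 4 combinations of the genes, in control (blue) and mutant (red) libraries; symbols mark replicate numbers and black bars the mean and SD. Only Slc39a4 over Slc39a5 shows no overlap between the groups among the 4, at 0.425 to 0.673 among the controls and 0.721 to 2.9 among the mutants.

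Slc30a2, the Paneth cell granule transporter gene, was the 1 member with a lower mean in mutant crypts. Control replicates 1 to 3 had 60.3, 24.3 and 26.7 units, and the mutant replicates had 27.3, 15.4 and 40.6 units. The groups overlapped, and control replicate 1 alone set the control mean apart. The log2 difference was -0.38 ± 0.44 (SE; limma adjusted p of 0.735), and without control replicate 1 it was 0.02 (0.988). All 9 Paneth cell markers, among them Lyz1, Mmp7 and Ang4, were lower by log2 difference, and 0 passed the test in limma (2 at an unadjusted p under 0.05) or had groups that did not overlap. Control replicate 1 was highest for both Slc30a2 and the Paneth marker sum. In the other 5 libraries the 2 parted, since mutant replicate 3 had the second highest Slc30a2 level and the lowest marker sum. Slc30a2 and Slc39a5 are also known from pancreatic acinar cells. Of 7 acinar markers, 5 were under 0.2 units in every library, with Cela2a and Prss2 at 0 throughout, and Cela1 lay between 3.83 and 8.14 units.

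**Figure D3:**
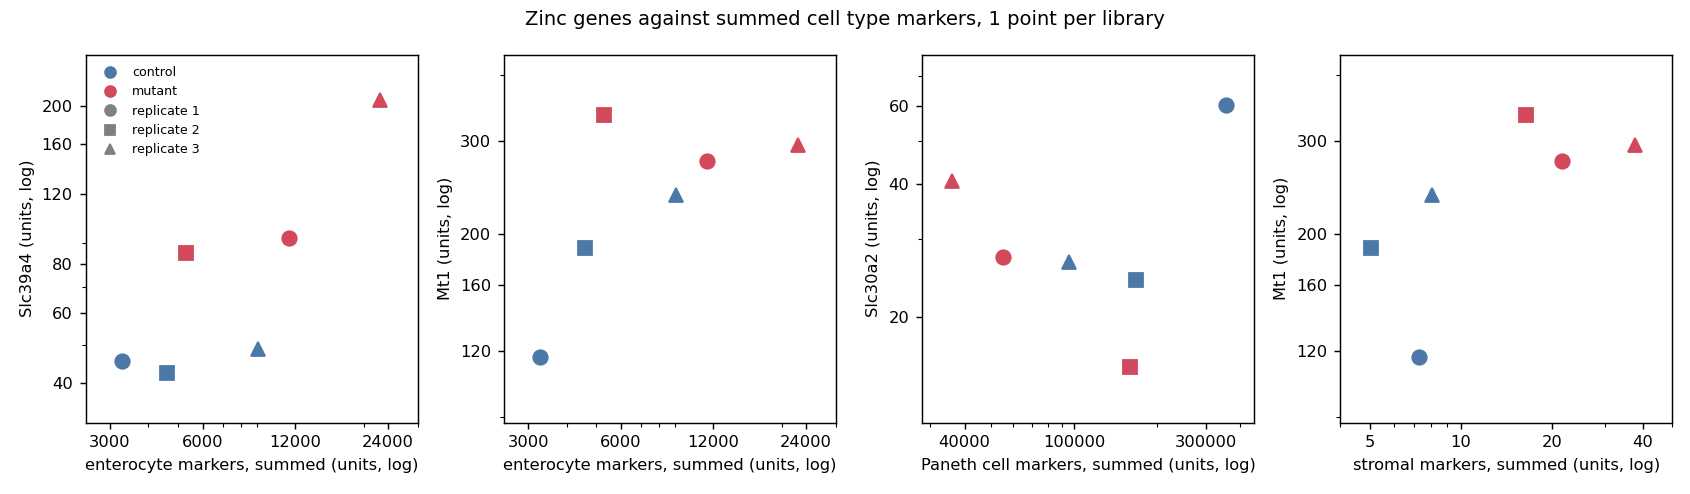
Level of a zinc gene (y axis, units, log scale) against the summed level of the markers of a cell type (x axis, units, log scale), 1 point per library; blue is control, red is mutant, symbols mark replicate numbers. Slc39a4 was 85.3 units in mutant replicate 2 and 48.9 units in control replicate 3, with enterocyte marker sums of 5304 and 9086 units. Divided by the marker sum, Slc39a4 overlapped between the groups, at 0.538 to 1.39% among the controls and 0.812 to 1.61% among the mutants. Mt1 and the stromal marker sum were both higher in every mutant than in every control library.

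Stromal markers stood higher in the mutant libraries. The sum of 8 stromal markers was 7.26, 5.05 and 8.06 units among the controls and 21.6, 16.4 and 37.7 units among the mutants. All 5 genes of that list that were tested (Col1a2, Col3a1, Dcn, Sparc and Vim) separated the groups in this direction, as 8.34% of all tested genes did, and 0 of the 5 passed the adjusted threshold in limma (4 at an unadjusted p under 0.05; lowest adjusted p of 0.227, for Col1a2). Col1a1, Pdgfra and Acta2 were under the filter. The part of stromal cells in the levels of Mt1, Mt2 and Slc39a4 was not tested. Pdgfra was at 0 in every control library and reached 0.204 units in mutant replicate 3.

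Among the members, mean levels per length over the 6 libraries fell into bands, and the ranges of some neighbouring bands overlapped. Mt1 ran from 117 to 337 units, Mt2 from 19.6 to 121 and Slc30a2 from 15.4 to 60.3. Mt1 was first, with a mean of 241 units. Slc39a5, Slc39a4 and Mt2 followed at 92.2, 86.9 and 84.7 units, and their ranges overlapped. Slc30a2 had 32.4 units, and Slc30a1 and Mtf1 had 7.3 and 6.77 units with overlapping ranges. In control libraries the order of the middle genes was Slc39a5, Mt2 and Slc39a4, at means of 88.9, 55.4 and 45.6 units. In mutant libraries it was Slc39a4, Mt2 and Slc39a5, at 128, 114 and 95.6 units, and neighbours in either order did not differ beyond the spread of their libraries.

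The wider families showed no general difference in the same direction. Of 28 metallothionein, Slc39a and Slc30a genes, 23 passed the filter, 14 of them higher and 9 lower by log2 difference, with a median of 0.07, and 0 passed the test in limma. An unadjusted p under 0.05 was reached by Mt1, Mt2 and Slc39a4 and by 0 of the 17 tested family genes outside the members. Over all tested genes 4.72% were higher and 3.59% lower at that threshold. Groups did not overlap for 16.7% of all tested genes and for 1 of the 17. This was Slc39a1, which encodes the plasma membrane importer ZIP1, at 38.3 ± 1.39 units among the controls and 46.9 ± 7.32 units among the mutants (SD, n = 3 each; log2 difference of 0.27 ± 0.15, limma adjusted p of 0.59).

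The 14 ZIP genes, 12 of them tested, had a median log2 difference of 0.09. After Slc39a5 and Slc39a4 the most abundant was Slc39a7, which releases zinc from the endoplasmic reticulum and Golgi, at 73.1 ± 8.61 units among the controls and 88 ± 7.96 units among the mutants. Slc39a14, an importer of zinc, manganese and iron that is induced in inflammation, had 29.6, 28 and 39.7 units among the controls and 41.8, 31.7 and 66.4 units among the mutants, and the groups overlapped. Slc39a8, a related importer, had the most negative value of the family at -0.46 ± 0.31 (limma adjusted p of 0.612). Slc39a10, which MTF1 is known to repress, had 5.2 ± 2.42 and 4.37 ± 1.5 units. The other tested ZIP genes, Slc39a3, Slc39a6, Slc39a9, Slc39a11 and Slc39a13, lay between -0.12 and 0.09. Slc39a2 and Slc39a12 were under the filter, and Slc39a2 stood at 0.701, 0.589 and 1.07 units among the controls and 0.448, 0.518 and 0.432 units among the mutants.

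Of 10 ZnT genes, 8 were tested, with a median log2 difference of 0.05. Slc30a10, a manganese exporter gene, had the largest positive value at 1.08 ± 0.61 (limma adjusted p of 0.59). Mutant replicate 3 stood far above the other libraries. The levels were 1.59, 1.2 and 2.64 units among the controls and 3.42, 1.77 and 14.9 units among the mutants. Slc30a5, Slc30a6 and Slc30a7, which supply zinc to enzymes of the secretory pathway, had log2 differences of 0.07, 0.05 and 0.06. Slc30a4, a transporter of vesicles, and Slc30a9, one of mitochondria, had -0.08 and -0.09. Slc30a5 stood at 39.9 ± 1.63 units among the controls and 42.1 ± 5.47 units among the mutants. Slc30a3 and Slc30a8, known from neurons and pancreatic islets, were under 0.2 units in every library.

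**Figure D4:**
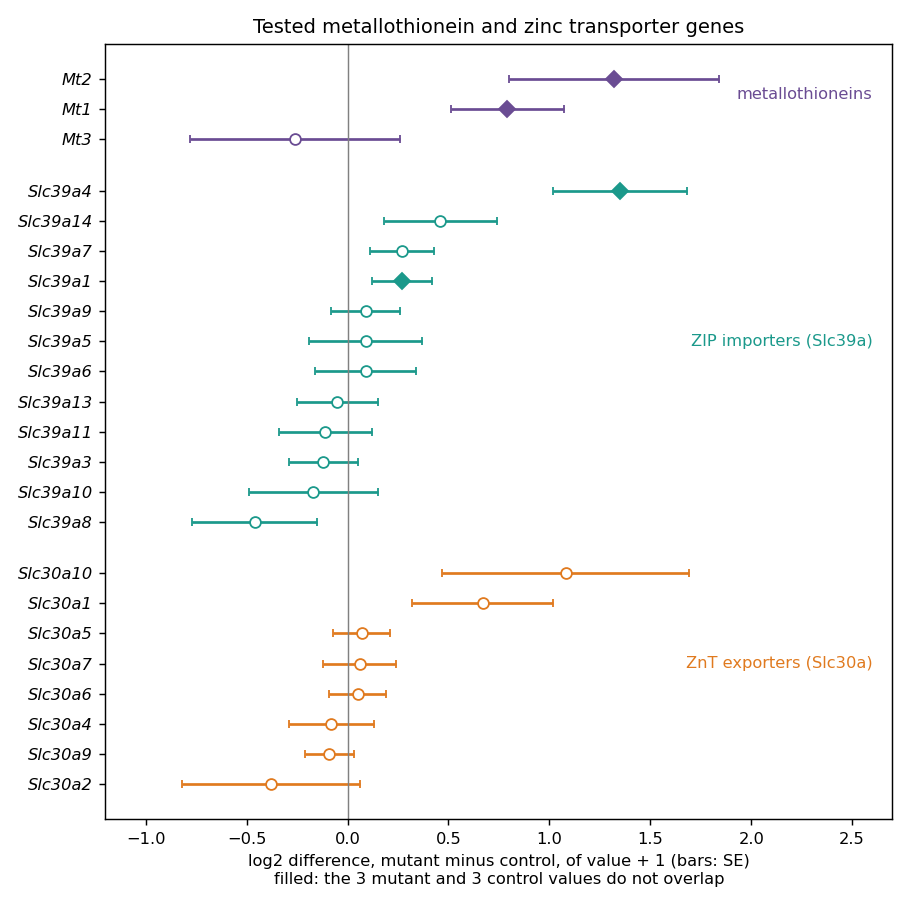
Log2 difference of value + 1, mutant minus control (x axis), with its SE, for the 23 tested metallothionein (purple), Slc39a (green) and Slc30a (orange) genes; filled diamonds mark genes whose mutant and control values do not overlap. Mt2, Slc39a4 and Mt1 lie at 1.32, 1.35 and 0.79, and the other 20 genes lie between -0.46 and 1.08.

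Genes that share the known inputs of metallothionein were then counted. Of 6 other MTF1-responsive genes tested, 4 were higher and 2 lower, with a median log2 difference of 0.04. The 2 lower ones were Ndrg1 (-0.88) and Slc39a10 (-0.17). MTF1 is known to repress Slc39a10, so the count and median mix opposite directions of response. Of the 6 genes, 1 had groups that did not overlap. This was Selenoh, a nuclear selenoprotein gene, at 21.6 ± 6.55 units among the controls and 37.4 ± 7.17 units among the mutants (log2 difference of 0.78 ± 0.24, limma adjusted p of 0.589). Of 9 copper handling genes, 5 were higher and 4 lower (median of 0.13). Cox17, the copper chaperone of cytochrome oxidase, had 85.3, 86.8 and 86.3 units among the controls and 101, 131 and 176 units among the mutants, without overlap (log2 difference of 0.62 ± 0.22, limma adjusted p of 0.589).

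Oxidative and metal stress genes had a median log2 difference of 0.28 over 7 tested genes, 5 higher and 2 lower. Gclm, a subunit of the enzyme that begins glutathione synthesis, had 24.6 ± 1.16 units among the controls and 33.1 ± 4.78 units among the mutants. Txnrd1, a thioredoxin reductase gene, had 93.4 ± 2.78 and 114 ± 5.81 units. These 2 had groups that did not overlap, and neither passed the test (log2 differences of 0.40 and 0.28, limma adjusted p of 0.589 for both). The heat shock genes Hspa1a and Hspa1b were the 2 lower ones.

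Of 8 glucocorticoid-responsive genes 6 were lower and 2 higher, with a median log2 difference of -0.26. The 2 higher ones were Sgk1 (0.61) and Dusp1 (0.67), whose groups overlapped. The 6 lower ones included Nr3c1 (-0.32), which encodes the glucocorticoid receptor itself. Zbtb16, a transcription factor gene induced by glucocorticoids, had 3.11, 6.53 and 1.97 units among the controls and 0.0973, 0.665 and 0.203 units among the mutants, without overlap (log2 difference of -1.80 ± 0.36, limma adjusted p of 0.54). STAT3 and acute-phase genes were all higher, 8 of 8 tested, with a median of 1.97. Socs3, the feedback inhibitor that STAT3 induces, had 9.69, 3.2 and 10.2 units among the controls and 20.1, 15.7 and 94.4 units among the mutants (2.02 ± 0.70, limma adjusted p of 0.589). Saa1 and Saa3, serum amyloid genes, were the others whose groups did not overlap, at 2.35 ± 1.00 (0.589) and 3.26 ± 0.36 (0.0935). Their levels were at most 0.83 units in control libraries, and Saa1 reached 41.2 units in mutant replicate 3. Socs3 and Saa1 were highest in mutant replicate 3. Saa3 had 5.56, 17 and 13 units in mutant replicates 1 to 3. It was highest in replicate 2, as Mt1 was, while Mt2 was highest in replicate 1. A link between these genes and the metallothionein genes was not tested. Of the genes in these 5 lists 0 passed the adjusted threshold in limma. At an unadjusted p under 0.05 were 1 of 6 MTF1-responsive, 1 of 9 copper, 1 of 7 stress, 2 of 8 glucocorticoid-responsive and 3 of 8 STAT3 or acute-phase genes. Of all tested genes 4.72% were higher and 3.59% lower at that threshold. Groups did not overlap for 1, 1, 2, 1 and 3 genes of these lists and for 16.7% of all tested genes.

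**Figure D5:**
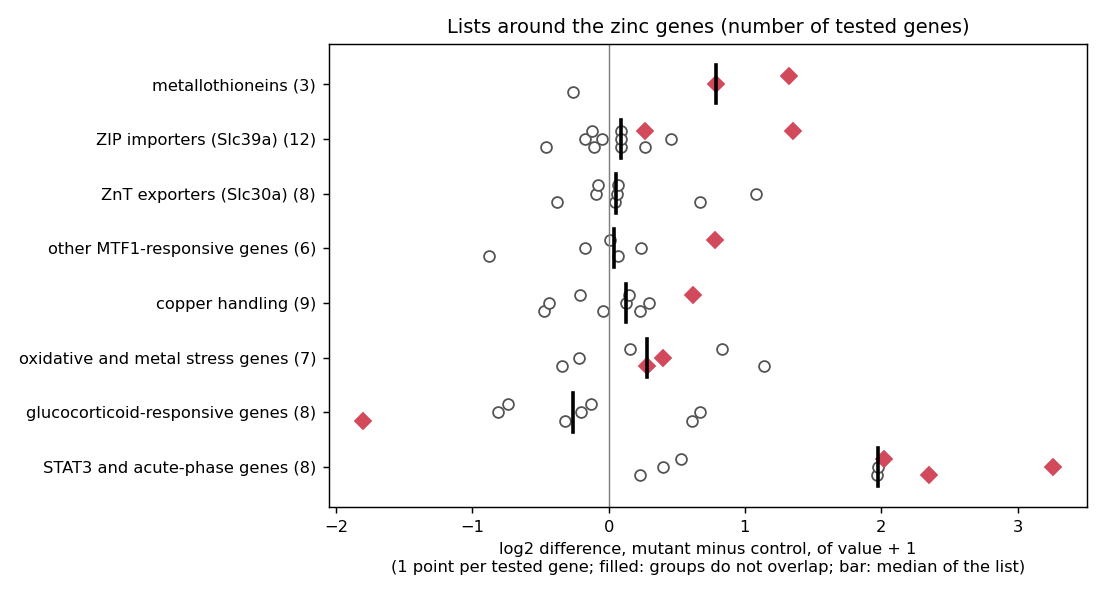
Log2 difference of value + 1, mutant minus control (x axis), of each tested gene in 8 lists (rows, number of tested genes in brackets); red diamonds mark genes whose groups do not overlap and black bars the median of the list. The STAT3 and acute-phase list has a median of 1.97 and the glucocorticoid-responsive list one of -0.26.

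The genes whose log2(value + 1) followed each member most closely over the 6 libraries were picked by Pearson r among genes with a mean of at least 5 units, as a description with no test. For Mt1 they included Sod1 and Mt2 (r of 0.971 and 0.964), and for Mt2 they were Dynlt1c, Sod1 and Gsta1 (0.989, 0.978 and 0.978). Sod1, the copper-zinc superoxide dismutase gene, thus stood in both sets, at 323, 414 and 500 units among the controls and 480, 526 and 499 units among the mutants. For Slc39a4 the set was Ercc3, Bak1 and Kptn (0.995, 0.994 and 0.993). For Mtf1 it was Ldb3, Tob1 and Clca4b (0.999, 0.999 and 0.998), and for Slc30a1 it was Rassf7, Tax1bp3 and Pkm (0.998, 0.997 and 0.996). For Slc39a5 it was Gna11, Aldh1a7 and Peak1 (0.981, 0.980 and 0.971), and for Slc30a2 it was Madd, Zbtb18 and Tulp4 (0.969, 0.965 and 0.951). All values come from the same 6 libraries and share their makeup of cells. Between the members r was 0.96 for Mt1 with Mt2, 0.96 for Mtf1 with Slc30a1, 0.87 for Slc39a4 with Slc30a1 and -0.12 for Slc39a4 with Slc39a5.

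Sequence shared with other transcripts limits 3 of the members. In GENCODE M21 transcripts, 330 of the 573 words of 31 bases of Mt2 also lie in its antisense neighbour Gm45774, 691 of 8898 of Mtf1 in 1110065P20Rik and 439 of 5241 of Slc30a1 in 1700034H15Rik, all on the opposite strand. Whether reads were counted by strand is not given in the labels. Mt1, Slc39a4, Slc39a5 and Slc30a2 shared 0 such words with other genes.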

How the data were processed

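RNA of mouse crypt epithelium was selected with poly-T beads before sequencing, per the labels' protocols. The 6 libraries were grouped by their titles, and columns were matched by group and replicate number; 0 value columns lacked a sample. The authors deposited a signal for each gene, which is a normalized abundance. The submitters' processing notes name DESeq2 1.40.1, the build mm9 and kallisto 0.46.1 without their roles; the annotation, filters and scaling were not given in the sources used here. Whole numbers made up 0% of values above 0, so no count model was run. Each value was transformed to log2(value + 1). All 11837 genes averaging 1 unit or more were fitted in limma 3.58.1 (R 4.3.3) with group alone and a trended variance prior, and p-values were adjusted by Benjamini-Hochberg over all of them, with 0.05 as the threshold. The script was tested on simulated data. The 7 members and all gene lists were chosen with earlier results of these data known. The genes named were the members, the tested genes of their families, the genes of other lists whose groups did not overlap, and the 3 genes of closest pattern for each member, of which 1 for Mt1 is not reported here; others were chosen after their values were seen. Alternatives were other scalings, filters and pseudocounts, array weights, a replicate block, a sex covariate and leaving out each library. Promoter windows came from RefSeq (GRCm38.p6). Figures were made with Python 3.11.15 and matplotlib 3.10.9.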

Additional observations from a re-analysis of the deposited data

How the results depend on the processing

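Of the 7 members, 0 passed the adjusted threshold under any of the 15 alternatives, and the number of higher genes among the tested family genes stayed between 12 and 17. Adjusted p in limma ran from 0.0737 to 0.921 for Slc39a4, from 0.124 to 0.921 for Mt1 and from 0.118 to 0.921 for Mt2, lowest with array weights for each of them. In that weighted fit the mutant side rested mostly on replicate 1, with a weight of 6.47 against 0.576 and 0.228 for replicates 2 and 3. With 1 library left out at a time, log2 differences ran from 0.51 to 1.02 for Mt1, 0.74 to 1.89 for Mt2, 0.15 to 0.48 for Mtf1, 0.95 to 1.58 for Slc39a4, -0.14 to 0.30 for Slc39a5, 0.32 to 0.93 for Slc30a1 and -0.70 to 0.02 for Slc30a2. The direction turned for Slc39a5 without control replicate 1 (-0.08) or mutant replicate 1 (-0.14) and for Slc30a2 without control replicate 1 (0.02); the cause was not tested. With array weights the difference was 0.58 for Slc39a5 and -0.57 for Slc30a2. Over all genes, limma called 0 higher and 2 lower. It called 1 higher at a pseudocount of 0.1, and 1 higher and 0 lower at 5. With array weights, whose estimation stopped before full convergence, it called 20 higher and 7 lower, and 0 lower with no filter, with the replicate block or with sex as a covariate. Without 1 library the counts ran from 0 to 2 higher and from 0 to 3 lower. Same-numbered libraries share no label of animal or day, so the numbers were not taken as pairs. Deviations from the group means had r of -0.29, 0.33 and 0.32 across genes between same-numbered libraries. Between differently numbered libraries r ran from -0.49 to 0.21, and these values do not settle whether replicates were paired. With the replicate block Slc39a4 kept its log2 difference of 1.35 (adjusted p of 0.383 in limma). Rescaling moved the median of all genes by at most 0.019 in size. Rescaling by the median of ratios had little to change, since those ratios already lay between 0.99 and 1.01.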
